A study of Mus musculus with 6 samples.

Results

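Genes of iron storage, transport and sensing were followed in mouse liver with and without chromogranin A, the product of Chga, which is stored in secretory granules of endocrine and nerve cells. The 9 genes were Hamp, Trf, Tfrc, Tfr2, Fth1, Ftl1, Hfe, Hpx and Cp, and every probe set annotated to 1 of these symbols alone was used. That gave 22 of the 22690 probe sets, standing for 7 of 12394 genes. Trf (transferrin, the plasma iron carrier) and Ftl1 (the ferritin light chain) had no probe set of their own. The 4 probe sets that touch them are shared with other genes and were left out, so neither gene has a value here. Liver RNA came from Chga knockout mice (3 samples) and wild-type mice (3 samples), all male and aged 12 weeks, with 1 Affymetrix array per sample. The labels cite 1 earlier study for the lines, and they give neither the strain behind the wild type nor how the allele was made. Diet and iron intake are not given either. The labels do not say that each sample is a separate mouse, so p-values reflect the spread among these 6 samples, which may be technical.

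The liver both stores iron and sets its level in the body. Hepatocytes secrete hepcidin, the product of Hamp, which makes cells degrade the iron exporter ferroportin (Slc40a1) and so lowers iron entry into plasma. Hfe and transferrin receptor 2 (Tfr2) help hepatocytes sense iron-loaded transferrin and adjust Hamp through BMP and SMAD signalling, while IL6 and STAT3 raise Hamp in inflammation. Iron regulatory proteins act on messenger RNA: when iron is scarce they stabilise Tfrc, which encodes the transferrin uptake receptor, and block translation of ferritin, the storage protein. Ferritin levels can therefore change with no change in Fth1 RNA.

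Values are linear intensities in arbitrary units, and changes are knockout minus wild type on log2(intensity + 16), a scale that understates changes of dim probe sets. The deposited arrays share a common scale, with a trimmed mean of 2501 on each, and 64.4% to 76.9% of probe sets lay above a background reference taken from Bacillus subtilis control probe sets. The test was limma with Benjamini-Hochberg adjustment over the 13576 probe sets in the upper 60% by mean, with a threshold of 0.05. It called 51 probe sets, or 0.376%, of which 26 were higher and 25 lower. Without wild-type replicate 1 or 3 the count was 23 or 21. The only probe set of Chga was dim, at 44.5 to 231 in knockout and 42.5 to 185 in wild-type arrays, and it does not check the labels. Markers of hepatocytes were bright in both groups, with 8 of 8 measured genes above background on all arrays.

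None of the 7 measured iron genes passed the limma test, a count of 0 against the background share of 0.376%. Of their 22 probe sets, 16 were bright enough to be tested, 3 were dim, and 3 were Tfrc control probe sets that the fit across all probe sets left out. Adjusted p-values of the 16 ran from 0.194 to 0.990. At an unadjusted p under 0.05 there was 1 gene, Tfrc, where 9.97% of all tested probe sets lay under that p (4.38% higher and 5.58% lower in knockout). Groups did not overlap for 2 of the 16, the brightest probe sets of Tfrc and Hfe, against 15.6% of all tested probe sets. Both were higher in knockout, as 7.44% of all tested probe sets were without overlap, and 8.12% were lower. By brightest probe set the 7 genes had a median log2 change of 0.097, against -0.015 over all 8047 genes.

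Hamp was among the brightest transcripts of these livers, at percentile 99.7 by mean brightness. Its brighter probe set read 103161, 147173 and 135115 in knockout and 110913, 121395 and 130222 in wild type. The groups overlapped fully, and the lowest and the highest value were both from knockout mice. The means were 128483 ± 22743 (SD, n = 3) and 120843 ± 9666, a log2 change of 0.075 ± 0.12 (SE, limma, adjusted p = 0.880). The 95% interval of the fit ran from 0.871-fold to 1.27-fold, so a 2-fold change of this probe set lies outside it. The other Hamp probe set stood at -0.046 ± 0.13 (adjusted p = 0.945).

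The close paralogue Hamp2 lies beside Hamp, and the regions upstream of both genes are shown. How alike the RNA of Hamp and Hamp2 is was not examined, and the upstream regions do not show what a probe set reads. Each sequence is the 250 bases before the RefSeq start in assembly GRCm38.p6, read 5′ to 3′ on the gene's strand. Hamp lies at chr7:30944030-30944279 on the minus strand and Hamp2 at chr7:30924182-30924431 on the minus strand. Capitals mark GGCGCC, the letters of the BMP response element, and TTCNNNGAA, the palindrome that STAT factors can bind.
Hamp: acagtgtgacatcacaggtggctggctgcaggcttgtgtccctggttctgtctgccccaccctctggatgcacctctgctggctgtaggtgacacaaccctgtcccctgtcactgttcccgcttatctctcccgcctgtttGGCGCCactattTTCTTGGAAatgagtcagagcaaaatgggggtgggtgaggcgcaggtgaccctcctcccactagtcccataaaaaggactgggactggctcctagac
Hamp2: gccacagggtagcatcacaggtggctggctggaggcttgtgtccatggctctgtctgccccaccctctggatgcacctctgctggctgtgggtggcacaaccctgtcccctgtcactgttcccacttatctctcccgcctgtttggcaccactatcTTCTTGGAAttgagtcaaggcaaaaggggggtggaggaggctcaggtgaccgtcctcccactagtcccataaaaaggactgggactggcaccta

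The windows were identical at 227 of 253 aligned positions, or 89.7%. Hamp held GGCGCC 109 bases before the start and the STAT letters 97 bases before it, while Hamp2 held only the STAT letters, 94 bases before its start. Both motifs read the same on either strand, and their matches in Hamp did not overlap. GGCGCC was in the window of 9.54% of 27025 genes and TTCNNNGAA in 7.18%. Of the 8 iron genes with a window, 2 held GGCGCC (Hamp and Tfrc) and 1 held the STAT letters (Hamp). An iron gene was counted if any of its windows matched (13 windows for the 8 genes), and Tfrc matched in only 1 of its windows. The shares over all genes used 1 window per gene, so the counts are not like for like. A match here is a description of letters only.

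On its brighter probe set Hamp2 did not follow Hamp from array to array. That probe set read 62424, 43459 and 52190 in knockout and 32810, 76900 and 34297 in wild type. Wild-type replicate 2 was highest and the other wild-type arrays were lowest. The change was 0.24 ± 0.27 (limma, adjusted p = 0.820). On this _x_at probe set, a suffix Affymetrix gives to probes that may match other sequences, the share of signal from Hamp was not tested. The other Hamp2 probe set, without that suffix, was dim. It read 170, 86.2 and 47.0 in knockout and 117, 168 and 36.6 in wild type (-0.035 ± 0.69). Only 1 of these values, from wild type, was above background, so the level of Hamp2 RNA is not settled here.

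Tfr2, the hepatocyte sensor of transferrin, read 36177, 43464 and 42570 in knockout and 43107, 34379 and 43306 in wild type on its brighter probe set. The groups overlapped, with a change of 0.020 ± 0.11 (limma, adjusted p = 0.973) and an interval from 0.851-fold to 1.21-fold. This too is an _x_at probe set. Its second probe set stood at -0.010 ± 0.11.

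Tfrc, the receptor that takes up transferrin-bound iron, had the largest log2 change of the 16 tested probe sets. Its brightest probe set read 6416, 4315 and 3196 in knockout against 2785, 2673 and 2156 in wild type. All 3 knockout arrays lay above all 3 wild-type arrays, but the knockout arrays were spread widely, at 4642 ± 1634 (SD, n = 3) against 2538 ± 335. The log2 change was 0.82 ± 0.22, or 1.76-fold with an interval from 1.25 to 2.48, at an unadjusted p of 0.00405 in the limma fit and an adjusted p of 0.194, which did not pass. Over all tested probe sets 3.35% had an unadjusted p under 0.01. Its direction was the same under all 17 alternatives in which it was fitted, with adjusted p-values from 0.0588 to 0.489. The change ran from 0.56 without knockout replicate 1 to 1.06 without knockout replicate 3, and the adjusted p of 0.0588 was the value without knockout replicate 3.

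The other Tfrc probe sets were much less bright, and none passed the test. The second tested probe set read 570, 550 and 408 in knockout and 247, 418 and 480 in wild type, with overlapping groups (0.44 ± 0.36, limma, adjusted p = 0.730). Another, dim probe set read 180, 134 and 77.2 in knockout and 139, 146 and 23.6 in wild type, with 1 of these values above background. The array also carries 3 control probe sets for this transcript, at its 3′ end, middle and 5′ end. The 3′ one read 444, 359 and 170 in knockout and 222, 333 and 316 in wild type, and the 5′ one read 153, 223 and 130 against 69.9, 20.4 and 73.4. The middle one read 88.0, 53.0 and 26.1 in knockout and 29.1, 41.1 and 34.5 in wild type. Over the 3 control probe sets 4 of 18 values were above background, all of them on the 3′ probe set. The groups of the 5′ control did not overlap, but no array of it was above background. On both tested probe sets knockout replicate 1 was the highest and knockout replicate 3 the lowest of the knockout arrays. The probe sets share the same 6 RNA samples and are not independent of one another.

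**Figure D1:**
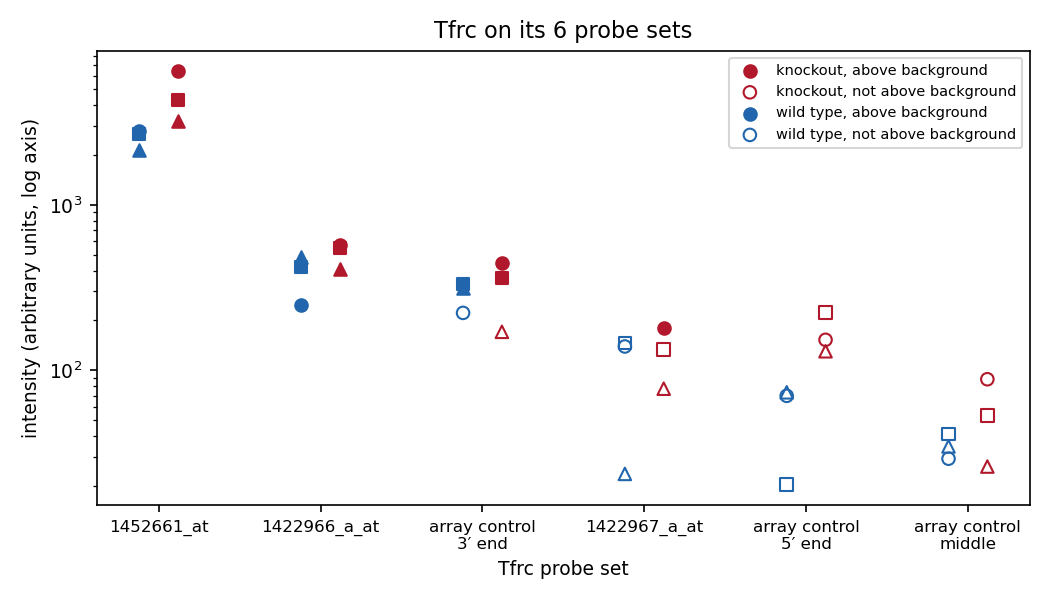
Intensity of each Tfrc probe set on each array, on a log axis in arbitrary units, ordered by mean brightness. Circles, squares and triangles are replicates 1, 2 and 3 and open symbols are not above background. On the brightest probe set the knockout arrays lie between 3196 and 6416 and the wild-type arrays between 2156 and 2785.

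The log2 ratio of Tfrc to each other iron gene on the same array restates the Tfrc difference against a gene of small change, and is no further support for it. The ratio changed by 0.72 to Fth1, 0.81 to Hpx and 0.68 to Cp, without overlap of the groups. An exact two-sided permutation test over the 6 arrays gave p = 0.1 for each of these, the smallest value that 3 against 3 arrays allow. The groups overlapped for the ratios to Hamp (0.74), Tfr2 (0.80) and Hfe (0.52). Over the 6 ratios the adjusted p-values ran from 0.2 to 0.4.

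Immature red cells carry much Tfrc, so erythroid markers were read too. The erythroid gene Alas2 read 8497 to 12444 in knockout and 10204 to 11373 in wild type (-0.026 ± 0.14). It was the 1 measured gene of a list of 9 erythroid genes, of which 4 had a probe set of their own, and its part in the Tfrc values was not tested. In bulk liver, fewer cells of a type and less RNA per cell cannot be told apart.

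Fth1, the ferritin heavy chain that oxidises iron for storage, was the most tightly measured iron gene. Its brighter probe set read 104930, 102746 and 113540 in knockout and 104482, 97870 and 97738 in wild type. The groups overlapped by a single value, wild-type replicate 1, and the change was 0.097 ± 0.078 (limma, adjusted p = 0.722), with an interval from 0.95-fold to 1.21-fold. The second probe set stood at 0.14 ± 0.091 (adjusted p = 0.656). Fth1 has processed pseudogenes, and the share of signal from near-identical copies was not tested.

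Hfe, the membrane protein that links transferrin receptors to Hamp control, read 5201, 4867 and 6546 in knockout and 4860, 4378 and 4177 in wild type. The groups did not overlap, though knockout replicate 2 and wild-type replicate 1 were nearly equal. The change was 0.30 ± 0.14 (limma, unadjusted p = 0.0548, adjusted p = 0.512), and it was 0.17 without knockout replicate 3. A dimmer Hfe probe set stood at -0.12 ± 0.40, reading 276 to 572 in knockout and 286 to 582 in wild type, so the probe sets of this gene disagree in sign.

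Hpx and Cp encode plasma proteins made by hepatocytes. Hemopexin (Hpx) binds free heme, and ceruloplasmin (Cp) is a copper ferroxidase that helps load iron onto transferrin; both are also acute phase proteins. Hpx read 111933, 152685 and 142039 in knockout and 137895, 124127 and 139242 in wild type. Knockout arrays were both the lowest and the highest, and the change was 0.0088 ± 0.11 (limma, adjusted p = 0.989), with an interval from 0.847-fold to 1.2-fold. Cp had 5 tested probe sets, with changes of 0.14, 0.015, 0.13, 0.10 and 0.0069 from the brightest to the least bright. The brightest read 91676, 112978 and 98381 in knockout and 93842, 84039 and 96740 in wild type (0.14 ± 0.097, adjusted p = 0.676). The groups overlapped on every tested Cp probe set, and on 2 further dim ones that were not tested, at 0.48 ± 0.77 and -0.65 ± 0.62.

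**Figure D2:**
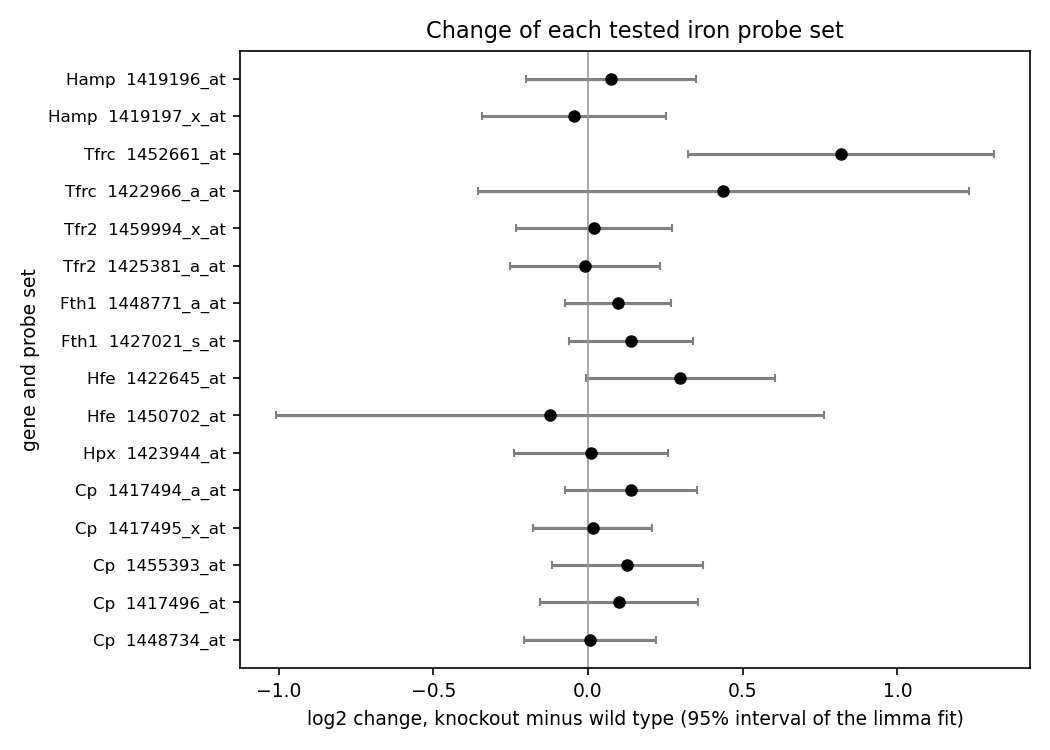
Log2 change of each of the 16 tested iron probe sets, knockout minus wild type, with the 95% interval of the limma fit as bars. The 12 probe sets of Hamp, Tfr2, Fth1, Hpx and Cp lie between -0.046 and 0.14, and the interval of the brightest Tfrc probe set is the only one that does not cross 0.

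Over these 12 probe sets of Hamp, Tfr2, Fth1, Hpx and Cp, no interval reached below 0.788-fold or above 1.29-fold. None had groups that did not overlap. A p that misses the threshold does not show that the levels are equal, but intensity changes beyond those bounds lie outside the intervals of this fit. The bounds are for array intensity, and how closely intensity follows RNA amount at this brightness was not tested.

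The knockout arrays stood in the same order for the brightest probe sets of Hamp, Hpx, Tfr2 and Cp. On knockout replicates 1, 2 and 3, Hamp lay at -0.23, 0.29 and 0.16 from its wild-type mean on the log2 scale. Hpx lay at -0.25, 0.19 and 0.089, Tfr2 at -0.15, 0.12 and 0.088, and Cp at 0.0047, 0.31 and 0.11. The mean of 18 bacterial and phage hybridization controls, which are added to each sample in fixed amounts, lay at -0.13, 0.19 and 0.14 on the same arrays. Centred on these controls, the SD of the knockout arrays went from 0.27 to 0.095 for Hamp and from 0.23 to 0.061 for Hpx. It went from 0.14 to 0.031 for Tfr2 and from 0.15 to 0.091 for Cp. That of Fth1 went from 0.076 to 0.18, that of Hfe from 0.22 to 0.26 and that of Tfrc from 0.50 to 0.65. In the wild-type arrays the SD of Hamp went the other way, from 0.12 to 0.16, while that of every other iron gene fell. The group changes after this centring were 0.0087 ± 0.098 for Hamp, -0.058 ± 0.083 for Hpx, -0.047 ± 0.11 for Tfr2 and 0.75 ± 0.27 for Tfrc. The control mean itself was 0.067 higher in knockout, the median of the 1120 tested probe sets in the brightest 5% was 0.062 higher, and 7 of 8 hepatocyte markers were higher with a median of 0.10, values near the 0.097 of the iron genes.

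**Figure D3:**
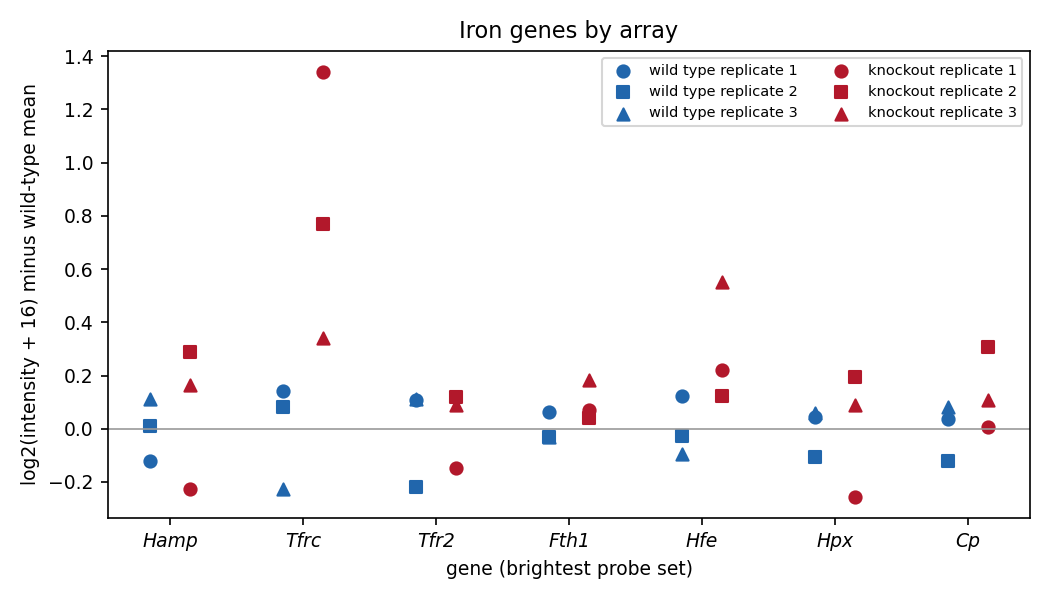
Log2(intensity + 16) of the brightest probe set of each iron gene on each array, minus that gene's wild-type mean; blue symbols are wild type and red symbols knockout, 1 symbol per array. Tfrc stands apart with knockout arrays at 0.34, 0.77 and 1.34, and Hamp and Hpx have knockout arrays on both sides of 0.

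The genes whose pattern over the 6 arrays was most like that of Hamp were Akirin2, Ifitm1, Marchf5, Siva1 and Son, with Pearson r from 0.97 to 0.98. After subtraction of each group's mean they were Uqcrc2, Ifitm1, Ankrd17, Rit1 and Pradc1, at 0.99. Among the iron genes, r with Hamp was 0.84 for Hpx and 0.69 for Cp, values exceeded by 1.89% and 7.06% of genes. It was 0.54 for Tfr2, 0.081 for Hfe, 0.041 for Fth1 and -0.30 for Tfrc, so the iron genes did not follow Hamp as a group. After subtraction of each group's mean, r was 0.85 for Hpx, 0.70 for Cp and 0.53 for Tfr2. It was then -0.11 for Hfe, -0.15 for Fth1 and -0.80 for Tfrc. All these r values are descriptions over 6 arrays that share the array differences given above. The genes most like Hamp were picked as the highest of 8047 genes.

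The genes around the 9 were taken from 6 lists by role, in which 69 genes were measured. Of these 2 fell and 0 rose by the limma test, at a background of 0.376% of probe sets. The fits gave 14 of 69 at an unadjusted p under 0.05, 3 higher and 11 lower, where 9.97% of all tested probe sets lay under that p, 4.38% higher and 5.58% lower. Over the 69 genes the median change was -0.038, against -0.015 over all genes.

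Hepcidin control genes had no call among 16 measured, with a median of 0.0032. The SMAD targets Id1 and Smad6, which BMP signalling raises along with Hamp, stood at 0.39 ± 0.32 and 0.39 ± 0.27. Those were the highest values of the list, while Smad7 stood at 0.054 ± 0.25 and the ligand gene Bmp6 at -0.57 ± 0.33. Smad4, the shared SMAD partner, was at -0.29 ± 0.12 (limma, unadjusted p = 0.0329, adjusted p = 0.453), without overlap of the groups. Id2 was at -0.29 ± 0.12 (unadjusted p = 0.0373, adjusted p = 0.469), with overlap. Both intervals lay below 0, and these were the only 2 of the 16 at an unadjusted p under 0.05, where 9.97% of all tested probe sets lay. For Id1, Smad6, Smad7 and Bmp6 the intervals of the fit included 0.

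Iron import and export genes were lower in knockout for 6 of 6 measured, with a median of -0.29 and no call. By contrast 47.3% of all genes were higher. The lowest of the 6, Cybrd1 (-0.74 ± 0.72), read 642, 63.4 and 518 in knockout and 316, 442 and 838 in wild type. Its groups overlapped, and its value on knockout replicate 2 was not above background. Ferroportin (Slc40a1), the target of hepcidin, read 23173, 25662 and 23080 in knockout and 28164, 26566 and 28037 in wild type. The groups did not overlap, and the change was -0.20 ± 0.088 (limma, adjusted p = 0.483), with -0.21 ± 0.12 on its second probe set. Slc39a14, an importer of iron not bound to transferrin, read 5812, 5621 and 5839 in knockout against 7707, 6644 and 7516, also without overlap (-0.34 ± 0.11, adjusted p = 0.306). All 6 stayed lower after quantile normalization, median centring and centring on the hybridization controls. Of the 6 genes 5 were lower without knockout replicate 2 or wild-type replicate 3, and with no filter on dim probe sets 8 of 11 were lower and 3 higher.

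Genes that scavenge and break down heme were lower for 6 of 9, with a median of -0.19 and no call. The median was -0.044 without wild-type replicate 2, -0.11 without knockout replicate 1 or wild-type replicate 1, -0.12 with no filter, and -0.045 by the mean of each gene's probe sets, where 5 of 9 were lower. Haptoglobin (Hp), which binds hemoglobin, stood at 0.032 ± 0.11, and Lrp1, the receptor for heme bound to hemopexin, at -0.19 ± 0.12. Heme oxygenase 1 (Hmox1) read 507, 423 and 420 in knockout and 647, 678 and 899 in wild type (-0.69 ± 0.27, limma, adjusted p = 0.434). With centring on the hybridization controls 8 of the 9 were lower, after quantile normalization 7 were, and with array weights 5 were. Ferroportin and Hmox1 are also macrophage genes. Of 10 measured Kupffer cell and macrophage markers 9 were lower, with a median of -0.24, and Clec4f stood at 0.0017 ± 0.21. Their summed level was 19228 to 30999 in knockout and 24426 to 32009 in wild type. On all arrays 9 of the 10 were above background. None of the 10 had an unadjusted p under 0.05 in the limma fit, where 9.97% of all tested probe sets did. Cd163 is counted both here and among the heme genes. Stellate cell and fibroblast markers were lower for 5 of 5, with a median of -0.24 and a summed level of 18929 to 24764 in knockout and 22029 to 30614 in wild type. Endothelial markers were lower for 4 of 6 measured and higher for 2, with a median of -0.049. Their summed level was 15460 to 16330 in knockout and 15497 to 15747 in wild type. Pancreas markers were lower for 2 of 2 measured out of 5 listed, with a summed level of 5041 to 8455 in knockout and 9649 to 10187 in wild type. Nearly all of that sum was Cela1 (-0.58 ± 0.17), at percentile 90.1 by mean brightness, while Cel was at percentile 45.3. Prss1, Cpa1 and Pnlip were not measured, and whether the Cela1 signal came from pancreas was not tested. Cel read 378 to 487 in knockout and 397 to 537 in wild type, with overlapping groups (-0.20 ± 0.31). The part of macrophages, stellate cells, fibroblasts and pancreas in the values of the heme genes, and of the import and export genes, was not tested.

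Cytosolic iron handling genes had no call among 8, with a median of -0.016. The brightest of them, Aco1 and Pcbp2, were among the 3 that were higher in knockout. Aco1, whose product is iron regulatory protein 1 when it lacks its iron-sulfur cluster, read 55276, 55869 and 60991 in knockout and 51077, 44518 and 46451 in wild type (0.28 ± 0.087, limma, unadjusted p = 0.00906, adjusted p = 0.283). Pcbp2, an iron chaperone and RNA-binding protein, read 24425, 25931 and 26788 against 19816, 20191 and 16571 (0.45 ± 0.10, unadjusted p = 0.00112, adjusted p = 0.107). The groups did not overlap for either gene. Ireb2, which encodes iron regulatory protein 2, was at -0.32 ± 0.15, and Ncoa4, the receptor for ferritin turnover, at -0.043 ± 0.10.

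Among 10 mitochondrial iron and iron-sulfur genes 1 fell and 0 rose. Fdx1, an iron-sulfur ferredoxin that passes electrons to mitochondrial cytochromes P450, read 28625, 30899 and 30395 in knockout and 43155, 40258 and 41846 in wild type. The groups did not overlap, with a fall of 0.48 ± 0.082 (limma, adjusted p = 0.0413), but the call held in 6 of 17 alternatives, and was lost with any 1 array left out. Fech, which inserts iron to form heme, stood at -0.20 ± 0.089 (adjusted p = 0.493). Alas1, the first enzyme of heme synthesis in liver, varied widely, at 46229 ± 18848 in knockout and 42550 ± 13756 in wild type (SD, n = 3).

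**Figure D4:**
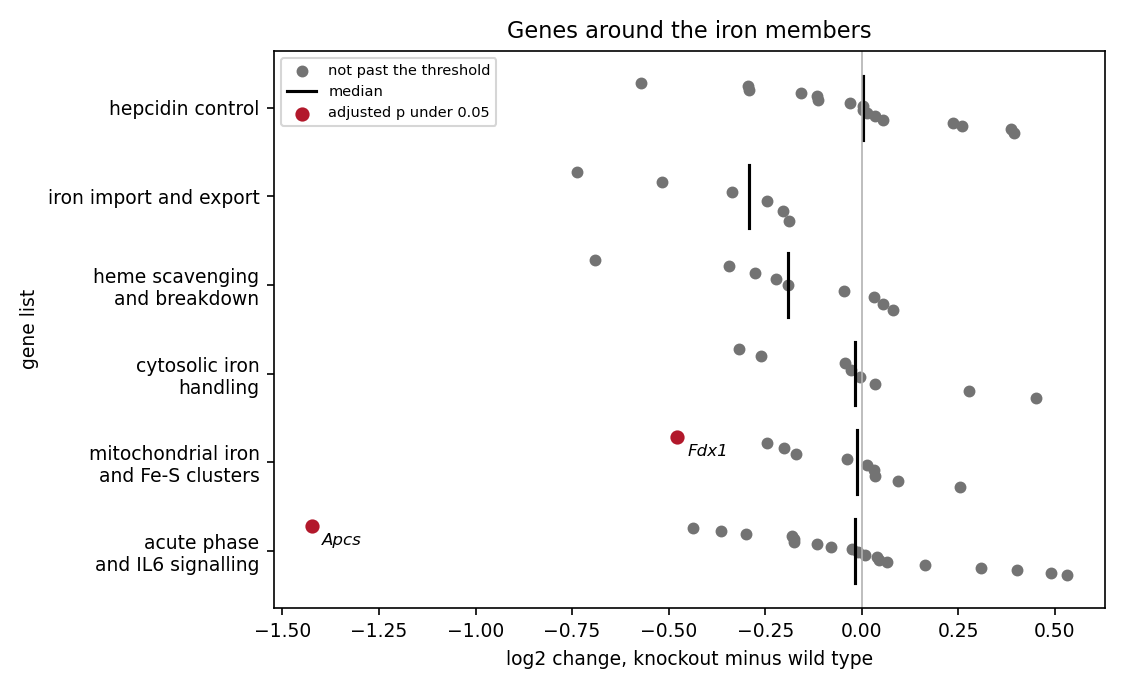
Log2 change, knockout minus wild type, of each measured gene in 6 lists around the iron genes; each point is 1 gene by its brightest probe set, black bars are list medians and red points passed the adjusted threshold of 0.05. All 6 iron import and export genes lie left of 0, and Fdx1 at -0.48 and Apcs at -1.42 are the genes that passed.

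Acute phase and IL6 signalling genes, the partners of Hamp, Hpx and Cp in inflammation, had a median of -0.018 over 20 measured. Of these 1 fell, the pentraxin Apcs, by 1.42 ± 0.12 on the log2 scale (limma, adjusted p = 0.000746), a call that held in 16 of 17 alternatives and not without the intensity trend (adjusted p = 0.0614). Stat3, the factor through which IL6 raises Hamp, read 5260, 5520 and 5477 in knockout and 7880, 7198 and 6958 in wild type, without overlap, and did not pass (-0.44 ± 0.11, adjusted p = 0.141). The brightest members, the fibrinogen genes Fgb and Fgg, stood at 0.045 ± 0.097 and 0.066 ± 0.096.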

How the data were processed

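Mouse liver RNA (6 samples) was hybridised to Affymetrix mouse arrays. GCOS 1.2 was used, per the submitters' processing notes, and samples were DNase-treated and labelled as cRNA with biotin, per the labels' protocols. The authors deposited linear intensity values, 1 per probe set and array; how they were scaled is not given. Of 22690 probe sets, 64 array controls were left out. Of the other 22626, GEO's annotation names 1 gene for 20380, several for 691 and none for 1555; names were checked against RefSeq (GRCm38.p6), and no gene was named from a shared probe set. Deposited intensities were turned into log2(intensity + 16), and the upper 60% by mean (13576 probe sets) was fitted with limma 3.58.1 in R 4.3.3 (lmFit, eBayes with intensity trend, 6 arrays, no covariate). Dim and control probe sets have values from a fit without the filter, with no adjusted p. The background reference is the 95th percentile of 27 Bacillus subtilis control probe sets per array. The procedure was tested on simulated data. The number of arrays limits the precision.

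All member probe sets are described; of each list, the genes past the threshold, those at an unadjusted p under 0.01 and the 2 brightest were to be named. Id1, Smad4, Smad6, Smad7, Bmp6, Cybrd1, Hmox1, Cd163, Clec4f, Ireb2, Ncoa4 and Fech were chosen after their values were seen. Members and lists were chosen with earlier results of these data known. Each list gene is taken by its brightest tested probe set. The alternatives changed the pseudocount (1, 64, or 16 times as large), the scaling (quantile, median centring), the filter (none, or the upper 40%), the trend, array weights, a replicate block and the probe set rule (mean per gene), or left out each array and, chosen after seeing the data, centring on hybridization controls.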

Additional observations from a re-analysis of the deposited data

How the results depend on the processing

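No iron gene passed limma's adjusted threshold under any of the 18 alternatives (0 in each). The count over all probe sets, 51, was 85 with a pseudocount 16 times as large, 82 with array weights and 7 without the intensity trend, and it ran from 21 to 57 with 1 array left out. The count of surrounding genes that passed, 2, was 1 after median centring, with no filter, after centring on hybridization controls and with each array left out (1 to 1), and 0 without the trend. With the replicate number as a block the counts were 27 probe sets, 0 iron genes and 1 surrounding gene. Same-numbered knockout and wild-type arrays deviated from their group means with correlations of -0.059, -0.060 and -0.065. With so few arrays per group, these values cannot show whether the numbers pair the samples. Of 374 combinations of a member probe set and an alternative, 37 changed sign, none of them called, 5 of these on probe sets that were dim or array controls. Quantile normalization gave Hamp -0.065, Hpx -0.14, Fth1 -0.016, Tfr2 -0.022 and Cp -0.051 and -0.029. Centring on hybridization controls gave Hpx -0.058, Tfr2 -0.047 and Cp -0.051 and -0.060. The second Tfr2 probe set was at 0.0042 after median centring and 0.012 with array weights. With 1 array left out, the ranges that crossed 0 among tested probe sets were -0.030 to 0.23 and -0.14 to 0.11 (Hamp), -0.083 to 0.14 (Hpx), -0.090 to 0.10 and -0.10 to 0.061 (Tfr2), -0.42 to 0.14 (dimmer Hfe) and -0.057 to 0.060, -0.020 to 0.22 and -0.035 to 0.076 (Cp). The causes were not tested. Signal near background limits the dim Tfrc and Cp probe sets.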
